A study of Mus musculus with 4 samples.

Results

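Glutathione and antioxidant enzymes were examined in testicular organoids (TOs) and mouse testes by droplet single-cell RNA sequencing. Members were taken by gene symbol. They were the glutathione S-transferases (Gsta, Gstm, Gstp, Gstt, Gsto, Gstk and Gstz followed by digits), the glutathione peroxidases (Gpx), the peroxiredoxins (Prdx), the superoxide dismutases (Sod), and Cat, Nqo1, Hmox1, Txn1, Txnrd1, Gclc, Gclm, Gss, Gsr and Srxn1. This rule found 49 of the 32285 genes in the files, of which 22 were glutathione S-transferases, 8 glutathione peroxidases, 6 peroxiredoxins, 3 superoxide dismutases and 10 single genes. Prdx6b, whose symbol goes on with a letter, was not counted.

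The series held 4 libraries, 2 of TOs and 2 of testes (TO 1, TO 2, testis 1 and testis 2). All came from ICR mice with no transgene or knockout. The design text gave 28 days as the age of both TOs and testes, whereas the dissociation protocol gave day 21 for the TOs. The study's published methods give day 28 for the TOs. Days of TOs count time in culture of cells taken from pups, so they are not ages equal to those of the testes. The TOs were built from dissociated testes of pups in the first postnatal week, embedded in matrix as spheroids and cultured at an air–liquid interface. Their medium held knockout serum replacement, follicle-stimulating hormone, testosterone and antioxidants, among them glutathione itself, an ascorbic acid glucoside and a tocopherol ester; the testes were taken from mice. The study's methods give 2 separate batches of organoids and its supplement calls the testes biological replicates, and which animals entered each library is not said in the labels. The p-values measure the spread between these libraries.

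Cells defend themselves against peroxides with 2 thiol systems. Glutathione is made by glutamate–cysteine ligase (Gclc, the catalytic subunit, and Gclm, the modifier) and glutathione synthetase (Gss), is spent by the glutathione peroxidases and transferases, and is recycled by glutathione reductase (Gsr) with NADPH. Peroxiredoxins are in turn reduced by thioredoxin (Txn1), thioredoxin reductase (Txnrd1) and sulfiredoxin (Srxn1), while superoxide dismutases and catalase (Cat) handle superoxide and hydrogen peroxide. Many of these genes are targets of the transcription factor NRF2. In the testis, Leydig cells begin steroid synthesis in mitochondria and carry high levels of antioxidant enzymes. Spermatids depend on Gpx4 for the structure of the sperm midpiece.

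The libraries held 11826 to 14643 barcodes and 74988295 to 119966959 UMIs (unique molecular identifiers, each counting an mRNA molecule). After filtering, 8713 to 9867 cells remained per library, with a median of 2549.0 and 3271.0 UMIs per cell in the testes and 5479.5 and 7561.0 in the TOs. Library pairs shared 30 to 55 barcodes. Cells were clustered without the members and named by fixed markers. The libraries held 239 to 1526 Sertoli cells, 340 to 1397 Leydig cells, 148 to 695 macrophages, 430 to 2334 myoid cells and 419 to 3430 stromal cells each. Germ cells numbered 61 to 242 undifferentiated and 159 to 424 differentiating spermatogonia and 245 to 352 early spermatocytes per library, whereas late spermatocytes numbered 107 and 56 in the TOs and 3126 and 2858 in the testes. TOs held 11 and 17 round spermatids and 0 elongating spermatids, so spermatids were described in testes only. Round spermatids numbered 2733 and 1689 in testis 1 and testis 2, and elongating spermatids 159 and 2539, so the testis libraries differed in spermatid make-up. Defining markers stood above the other cells in these types, apart from 1 of 6 markers of differentiating spermatogonia in both testes and 1 of 6 of late spermatocytes in testis 2. Endothelial cells of the TOs had only 2 of 5 markers above the other cells, so they were not tested. The median Leydig marker was at 150.1 CPM (UMIs of a gene per 1000000 UMIs of the type) in Leydig cells of TO 2, against 2351 in TO 1 and 3144 and 1734 in the testes. The median myoid marker was at 395 and 392 CPM in myoid cells of TO 1 and TO 2, against 1983 and 1806 in testis 1 and testis 2. Myoid cluster 21, led by Rgs5, Mustn1 and Tagln, held 59 and 78 cells of the TOs and 216 and 145 of the testes. The part of these in the differences of myoid cells was not tested. The 3 unnamed germ clusters held 47, 14, 213 and 195 cells of TO 1, TO 2, testis 1 and testis 2. The largest cluster of a type differed between TOs and testes in Sertoli cells (cluster 6 with 66.4% against cluster 15 with 45.3%), differentiating spermatogonia (11 with 91.0% against 9 with 98.1%), early spermatocytes (13 with 66.2% against 14 with 48.3%) and late spermatocytes (23 with 25.2% against 0 with 40.8%). The 2 testis libraries also differed in their Sertoli clusters. Cluster 15 held 313 and 10 cells of testis 1 and testis 2, cluster 6 held 54 and 31, and cluster 33 held 87 and 85. Cluster 37 held 0 and 105, and the TOs had 0 cells in clusters 33 and 37. Levels by cluster were not taken for Sertoli cells, and the part of these clusters in their differences was not tested.

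NRF2 binds the antioxidant response element. The members' promoters were searched for TGACNNNGC, the core of this element, on both strands. RefSeq windows (GRCm38.p6, 250 bases before to 50 after an annotated start) matched 42 of the 49 members, some with more than 1 window. The motif was in 8 of 55 windows of members (14.5%) and in 12.4% of 32851 windows of all genes. The members with the motif were Gclm, Gsta3, Gstm5, Gstm7, Prdx1, Sod1, Srxn1 and Txnrd1. The 5 stretches outside annotated exons are shown, with the motif in capitals as it reads on the gene's strand, because Prdx1, Txnrd1 and Gsta3 were called in at least 1 type and Gclm and Sod1 in none. They lie at chr3:122245393-122245461 (Gclm), chr1:21240434-21240502 (Gsta3), chr4:116685436-116685504 (Prdx1), chr16:90220676-90220744 (Sod1) and chr10:82859084-82859152 (Txnrd1), all on the plus strand. The Txnrd1 stretch lies inside the gene, which spans 82833951 to 82897712 in GENCODE, and not at its first base.
Gclm: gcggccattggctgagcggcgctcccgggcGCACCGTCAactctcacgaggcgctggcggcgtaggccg
Gsta3: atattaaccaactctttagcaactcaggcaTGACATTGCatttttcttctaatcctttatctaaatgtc
Prdx1: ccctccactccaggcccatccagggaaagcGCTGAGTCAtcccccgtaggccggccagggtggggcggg
Sod1: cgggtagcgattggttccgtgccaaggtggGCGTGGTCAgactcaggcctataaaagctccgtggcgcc
Txnrd1: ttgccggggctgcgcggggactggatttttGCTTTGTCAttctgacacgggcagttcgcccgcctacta

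The members together took the largest share of UMIs in Leydig cells of the testes, 1.59% and 1.39% in testis 1 and testis 2, and less in Leydig cells of the TOs, 1.14% and 0.926%. Macrophages showed the opposite, with 1.03% and 0.739% in the TOs against 0.547% and 0.505% in the testes. Sertoli cells had 1.14% and 1.09% in the TOs against 0.882% and 0.814% in the testes. The libraries of the conditions did not overlap in these 3 types, although with 2 libraries against 2 an exact two-sided permutation test cannot go below 0.33. Myoid and stromal cells overlapped between conditions, at 0.636% to 0.776% and 0.733% to 0.864%. Undifferentiated spermatogonia had 0.554% and 0.592% against 0.509% and 0.483%, with no overlap. Differentiating spermatogonia had 0.575% and 0.524% against 0.521% and 0.501%, and there the conditions overlapped with doublets kept or without upper limits per cell. Early spermatocytes lay between 0.327% and 0.417%. Late spermatocytes had 0.485% and 0.468% in the TOs against 0.751% and 0.616% in the testes, but 0.643% and 0.697% against 0.736% and 0.607%, an overlap, when cells were named by the other marker score. Elongating spermatids of the testes had 0.870% and 1.18%.

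**Figure D1:**
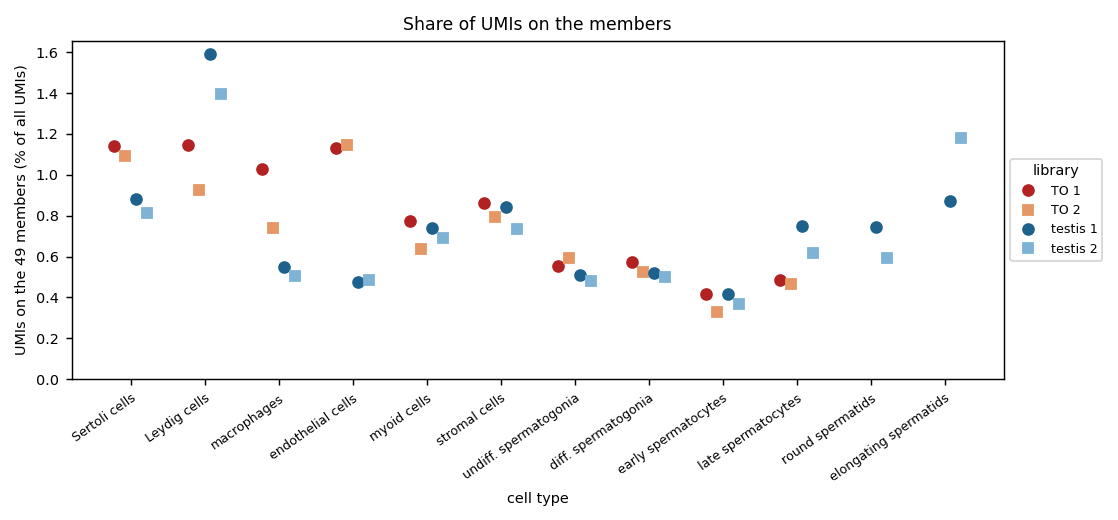
Share of all UMIs of a cell type that fell on the 49 members (y axis, percent) in each cell type (x axis), with 1 point per library. TO points lie below testis points in Leydig cells (1.14% and 0.926% against 1.59% and 1.39%) and above them in macrophages and Sertoli cells; cells named endothelial lacked most endothelial markers in the TOs.

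The most abundant members differed by cell type. Mean CPM over the conditions was highest for Gstm1 in Sertoli, myoid and stromal cells (1203, 1105 and 1362), for Prdx1 in Leydig cells (2426), macrophages (2394) and undifferentiated spermatogonia (2157), and for Gstm5 in round and elongating spermatids (2565 and 4295). In the testes, 13 members had their highest mean CPM in Leydig cells, among them Gstm1, Gstm2, Prdx1, Prdx3 and Prdx5, and 8 had it in Sertoli cells, among them Gsta4, Gstm6, Gstm7, Prdx2 and Prdx6. Spermatids held the highest level of 10 members, 7 of them in elongating and 3 in round spermatids, including Gstm5, Gpx4, Gsto2, Gstt4, Gpx6, Sod1 and Prdx4. Macrophages led for Cat, Hmox1 and Txnrd1, and differentiating spermatogonia for Gclc, Gclm and Gss. In the order TO 1, TO 2, testis 1 and testis 2, Gstm1 was at 1258 and 883 against 1207 and 1070.1 CPM in myoid and 1427 and 1265 against 1503 and 1253 CPM in stromal cells, and Prdx1 at 1495 and 1205 against 576 and 742 and 1654 and 1457 against 651 and 700.2 CPM. Prdx1 was at 2497 and 2853 against 1656 and 1619.8 CPM in undifferentiated and 2141 and 1891 against 1413 and 1412 CPM in differentiating spermatogonia, and at 1519.7 and 1177 against 666 and 892 CPM in early spermatocytes. Sod2 in early spermatocytes was at 374 and 459.6 against 376 and 437 CPM and Prdx5 in differentiating spermatogonia at 381 and 381 against 323 and 404 CPM. Stromal cells had 835 and 1214 against 395 and 552 CPM of Txn1. The cells named endothelial were not tested, because those of the TOs went against the name. Their endothelial markers summed to 230 and 117 CPM in TO 1 and TO 2 against 2210 and 1870 CPM in testis 1 and testis 2, and their Sertoli markers to 2560 and 1780 against 428 and 328 CPM. In these cells Gstm2 was at 2265 and 2316 against 201 and 122, Prdx1 at 1447 and 1642 against 838 and 976 and Gstm1 at 2054 and 2081 against 163 and 99.8 CPM. Gpx2, Gpx5, Gstm3 and Gstp3 stayed under 5 CPM in every type.

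TOs and testes were compared within each of 9 cell types on UMIs summed per library, with edgeR's quasi-likelihood test. A gene was called at an adjusted p under 0.01 and a change over 2-fold. Genes with at least 5 times more CPM in other cells than in the type were left out before adjustment, and genes with too few UMIs were not tested. In all, 13 members were called higher in TOs in at least 1 type, 6 were called lower, 0 were called in both directions and 30 were called in no type. There were 25 calls higher and 28 lower.

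Somatic cells carried most of the calls. In Sertoli cells, 6 of 35 members tested were called higher (7.48% of all genes tested were) and 4 lower (15.9%). In macrophages, 6 of 28 were higher (2.68%) and 4 lower (12.6%). In myoid cells, 4 of 42 were higher (4.01%) and 5 lower (18.0%), and in stromal cells 5 of 43 were higher (1.85%) and 4 lower (14.1%). Leydig cells had 2 of 39 members called higher (0.962%) and 0 called lower (1.74%), although 14 had an unadjusted p under 0.05 in that direction and DESeq2 called 5. The share of members called higher was above the background in each of these types, and the share called lower was at or below it in Sertoli, Leydig, myoid and stromal cells. Members had a median log2 fold change of 0.69 in macrophages, 0.52 in stromal cells, 0.35 in myoid cells, 0.22 in Sertoli cells and −0.47 in Leydig cells, beside 0.10, 0.10, 0.07, 0.06 and 0.11 over all genes tested.

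Fewer members were called in germ cells. Undifferentiated spermatogonia had 0 of 25 members called higher (0.225% of all genes) and 3 called lower (6.06%), and differentiating spermatogonia had 0 of 23 called higher (0.236%) and 3 lower (7.44%). For the members called higher in 0 cases, 5 and 7 had an unadjusted p under 0.05 in edgeR, and DESeq2 called 0 and 1. Early spermatocytes had 1 of 17 called higher (0.872%) and 3 lower (11.4%), and late spermatocytes had 1 of 19 called higher (1.42%) and 2 lower (4.84%). Of the 53 calls, 21 were kept whichever library was left out, and 12, 11, 25 and 12 were lost without TO 1, TO 2, testis 1 and testis 2. Members called fell to 5 in Sertoli cells without TO 2, to 1 in Leydig cells without TO 1, to 2 and 1 in myoid cells without testis 1 and testis 2, to 4 in stromal cells without testis 1, to 1 and 0 in undifferentiated spermatogonia without TO 1 and testis 1, to 2 in early spermatocytes without TO 1 and to 1 in late spermatocytes without testis 1. They were 4 in Leydig cells without either testis library, 5 in both kinds of spermatogonia without testis 2, and 7 and 8 in late spermatocytes without TO 1 and TO 2.

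**Figure D2:**
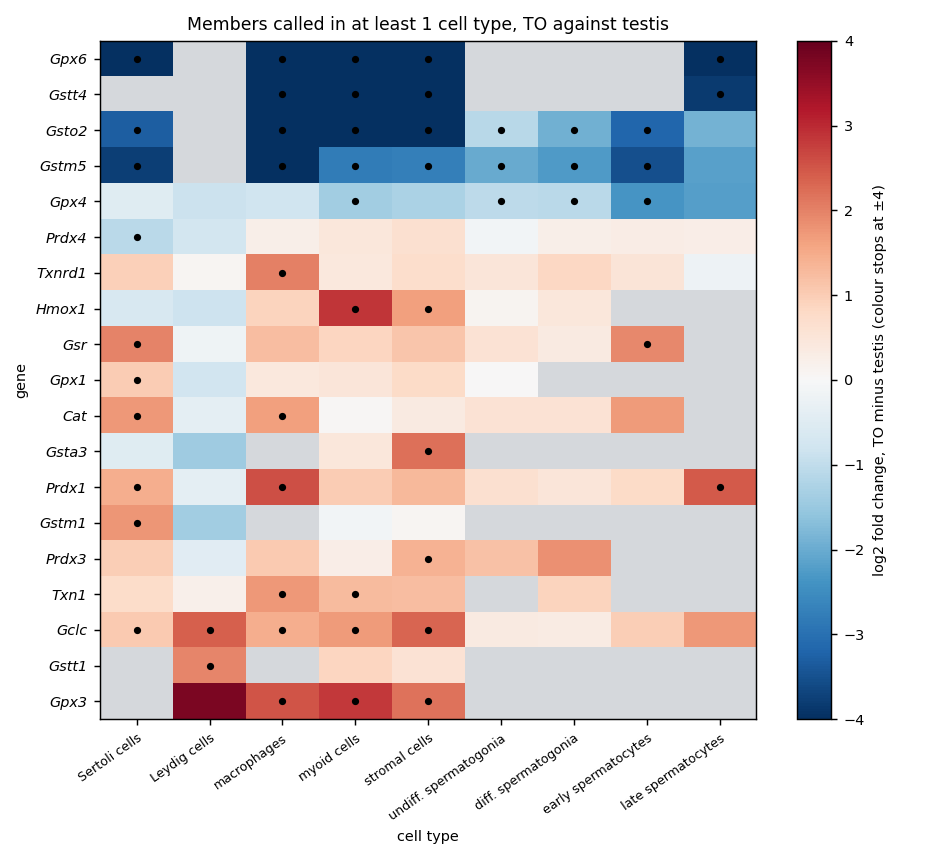
Log2 fold change, TO minus testis, of the 19 members called in at least 1 type (rows) in 9 cell types (columns). Red is higher in TOs, blue is lower, grey is left out or too few UMIs, and a dot marks a call; Gclc has dots in 5 somatic types, and the blue rows at the top are Gpx6, Gstt4, Gsto2, Gstm5 and Gpx4.

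RNA of spermatids moved with the condition in every type. A list of 9 spermatid genes, among them the protamines and transition proteins Prm1, Prm2, Tnp1 and Tnp2, summed to 1849 to 14027 CPM in testis cells of the 9 types tested, against 0.504 to 18.4 CPM in TO cells of 8 of these types and 141 and 207 CPM in their late spermatocytes. All members of this list that could be tested were called lower in TOs (4 of 4 in Sertoli cells, macrophages, myoid cells, differentiating spermatogonia and late spermatocytes, 5 of 5 in stromal cells, 3 of 3 in undifferentiated spermatogonia and early spermatocytes, none tested in Leydig cells). The profile of each testis library, scaled to this list, was subtracted from its sums, a step added after seeing the data. Then 0 members were called in any type, and 0 to 66 genes per type over all genes. The profile held the RNA of the type itself. It was scaled to 51.9% and 9.57% of the UMIs of stromal cells in testis 1 and testis 2. The values were 50.5% and 9.45% in myoid cells, 41.4% and 9.07% in macrophages, 32.1% and 20.3% in Sertoli and 19.9% and 3.83% in Leydig cells. The subtraction was thus unequal between the 2 testis libraries, and the part of this in the lost calls was not tested. The 25 calls higher in TOs kept their direction in the fit after the subtraction. Only the testis sums were lowered, which apart from the rescaling of libraries can only raise a TO value relative to the testes. Their kept direction is therefore no test of these calls. The values of that fit are given beside the main results.

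Markers of other somatic types also moved with the condition. The 5 stromal markers summed to 156 and 109 CPM in Sertoli cells of TO 1 and TO 2 against 20.5 and 8.86 in testis 1 and testis 2, with 0 and 0 against 1 and 1 of them at 0. In macrophages the same list summed to 186 and 151 against 22.3 and 4.81 CPM (1 and 2 markers at 0 in the testes), and in myoid cells to 4290 and 6170 against 1750 and 1640 CPM (1 at 0 in testis 2), beside 7590 to 9450 CPM in stromal cells themselves. The 6 macrophage markers summed to 64.4 and 49.8 against 3.75 and 4.78 CPM in myoid cells and 82.7 and 64.7 against 5.60 and 8.54 CPM in stromal cells, with 1 to 3 of them at 0 in the testes, beside 11400 to 32200 CPM in macrophages. In late spermatocytes the Sertoli list summed to 749 and 118 against 45.2 and 40.2 CPM and the stromal list to 469 and 105 against 11.0 and 6.64 CPM. The part of these in the members' differences was not tested.

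Gclc, whose product limits the rate of glutathione synthesis, was called higher in TOs in all 5 somatic types tested. In Leydig cells it was at 217 and 154 CPM in TO 1 and TO 2 against 31.7 and 35.7 CPM in testis 1 and testis 2 (log2 fold change 2.39 ± 0.28 (SE), edgeR adjusted p = 0.00467). In stromal cells it was at 218 and 135 CPM in TO 1 and TO 2 against 39.2 and 35.7 CPM in testis 1 and testis 2 (log2 fold change 2.33 ± 0.28 (SE), edgeR adjusted p = 0.00152). Myoid cells had 91.4 and 77.2 against 25.7 and 24.6 CPM (log2 fold change 1.72 ± 0.23 (SE), edgeR adjusted p = 0.000363), in the order TO 1, TO 2, testis 1 and testis 2. Both TO libraries were above both testis libraries in each of these types. Macrophages had 106 and 83.2 against 33.4 and 46.4 CPM (log2 fold change 1.45 ± 0.31 (SE), edgeR adjusted p = 0.00503). Sertoli cells had 59.0 and 60.0 against 30.5 and 30.3 CPM (log2 fold change 1.05 ± 0.18 (SE), edgeR adjusted p = 0.00386). Groups did not overlap in these types either, but the differences were smaller. The call in Leydig cells was kept without any single library, but it was lost in 5 of 15 alternatives, with adjusted p from 0.0104 to 0.033 in edgeR (genes left out from 2 times, the replicate block, thinned sums, no upper limits per cell and the background subtracted). Those in myoid and stromal cells were lost in 3 of 14 and 3 of 15, and those in Sertoli cells and macrophages in 6 and 7 of 15. The calls in Sertoli cells, macrophages, myoid and stromal cells were lost without 1 or more libraries (Sertoli cells without TO 1, TO 2 or testis 1, macrophages without TO 1 or testis 1, myoid and stromal cells without either testis library). With the testis background subtracted, the log2 fold changes of Gclc were 2.27, 2.05, 1.61, 1.22 and 0.86 in Leydig, stromal and myoid cells, macrophages and Sertoli cells. In germ cells, where Gclc was highest among the testis types (119.5 CPM in differentiating spermatogonia), it was called in none of 4 types, with log2 fold changes of 0.35 in undifferentiated and 0.32 in differentiating spermatogonia, 0.97 in early and 1.74 in late spermatocytes.

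The other genes of the glutathione cycle differed in fewer types. Gclm was called in none of 9 types. Its log2 fold change was 1.06 in macrophages, at 117 and 117 against 61.2 and 68.9 CPM, 0.83 in Sertoli cells and −0.39 in Leydig cells. Gss, which adds the last amino acid, stayed under 30 CPM in all libraries and was called in none of 9 types. Gsr, the reductase, was called higher in Sertoli cells at 258 and 392 CPM in TO 1 and TO 2 against 65.7 and 111 CPM in testis 1 and testis 2 (log2 fold change 1.98 ± 0.33 (SE), edgeR adjusted p = 0.00342). It was also called higher in early spermatocytes at 87.7 and 55.3 against 22.7 and 14.2 CPM (log2 fold change 1.93 ± 0.38 (SE), edgeR adjusted p = 0.00137). All TO libraries were above all testis libraries in both types. The Sertoli call was lost without TO 2 or testis 1 and the spermatocyte call without TO 1, and the values with the background subtracted were 1.69 and 2.40. Undifferentiated spermatogonia had the highest Gsr level of the TOs, at 354 and 458 against 234 and 289 CPM, with no call.

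**Figure D3:**
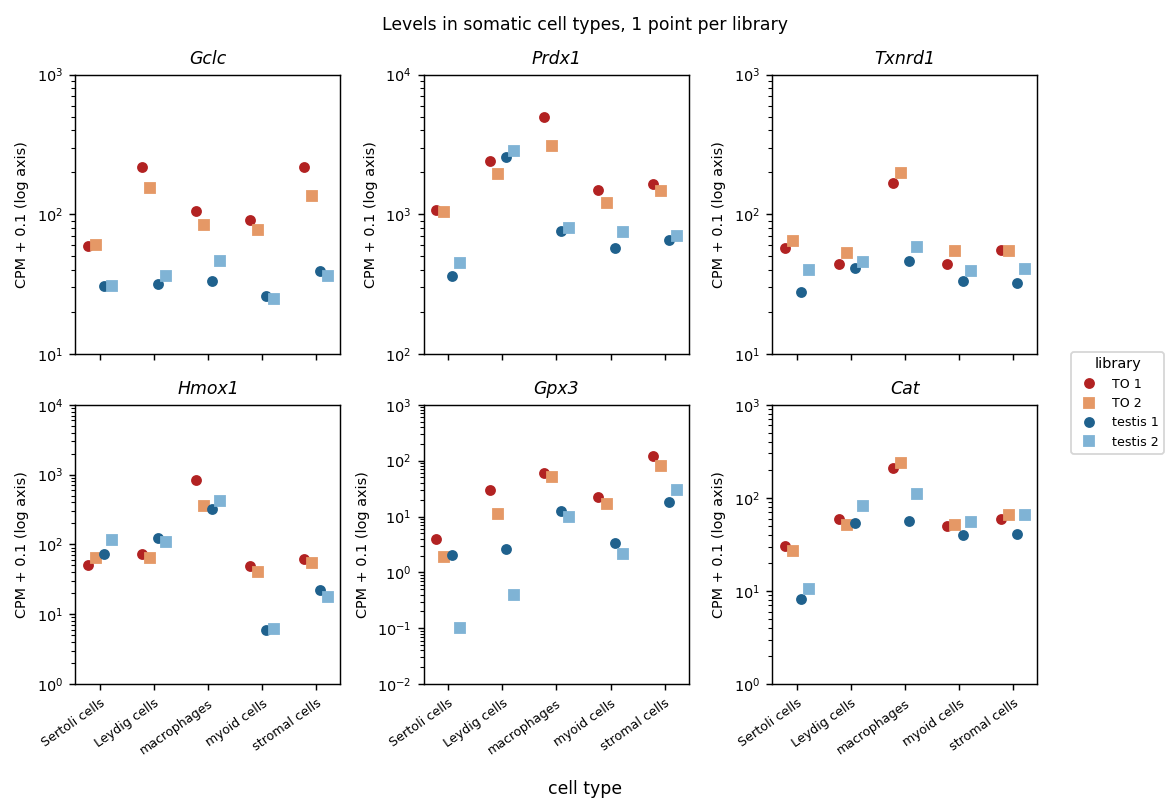
CPM + 0.1 on log axes (y) of 6 members in the 5 somatic types tested (x), with 1 point per library. Gclc lies higher in both TO libraries in every type, at 217 and 154 against 31.7 and 35.7 CPM in Leydig cells, while Prdx1 lies lower in TOs than in testes in Leydig cells (2389.8 and 1926 against 2549.7 and 2839 CPM) and higher in macrophages.

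Prdx1, Txn1 and Txnrd1, of the peroxiredoxin and thioredoxin system, were called higher in TO macrophages. Prdx1, the abundant cytosolic peroxiredoxin, was at 4939 and 3094 CPM in TO 1 and TO 2 against 753 and 791 CPM in testis 1 and testis 2 (log2 fold change 2.59 ± 0.32 (SE), edgeR adjusted p = 9.13e-05). Txn1, its electron donor, was at 876 and 907 CPM in TO 1 and TO 2 against 289 and 330.0 CPM in testis 1 and testis 2 (log2 fold change 1.74 ± 0.27 (SE), edgeR adjusted p = 0.000606). Txnrd1, which recharges thioredoxin, was at 167 and 196 CPM in TO 1 and TO 2 against 45.9 and 57.7 CPM in testis 1 and testis 2 (log2 fold change 2.02 ± 0.29 (SE), edgeR adjusted p = 0.000278). TO macrophages thus had more of all 3 genes of this relay than testis macrophages, with no overlap, and the 3 calls were kept whichever library was left out. Macrophages of TOs and testes lay in part in different clusters. Cluster 34, led by Mmp12, Gpnmb and Lgals3, held 48 and 106 cells of the TOs and 0 of the testes, and cluster 39, led by MHC class II genes, held 1 and 5 against 49 and 41 cells. In the shared cluster 8, Prdx1 was at 2894 and 2193 against 819 and 856 CPM, Txn1 at 703 and 719 against 313 and 353 and Txnrd1 at 136 and 157 against 52.6 and 66.9, smaller differences with no overlap. In cluster 34 Prdx1 reached 12421 and 6468 CPM. With the background subtracted, the log2 fold changes were 2.34 for Prdx1, 1.38 for Txn1 and 1.76 for Txnrd1. Srxn1, which repairs overoxidised peroxiredoxins, was at 33.8 and 26.2 against 12.5 and 12.8 CPM in macrophages and was not called (log2 fold change 1.44 ± 0.42 (SE), edgeR adjusted p = 0.028). A stretch of the Prdx1 promoter and one of a Txnrd1 window inside the gene, each with the antioxidant response motif, are printed with the promoters.

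Outside macrophages, Prdx1 was called higher in Sertoli cells, at 1079 and 1033 CPM in TO 1 and TO 2 against 362 and 445 CPM in testis 1 and testis 2 (log2 fold change 1.47 ± 0.19 (SE), edgeR adjusted p = 0.0011), and this call was kept without any single library, with a value of 1.51 after the subtraction. In late spermatocytes it was at 781 and 1144 against 108 and 136 CPM (log2 fold change 2.45 ± 0.51 (SE), edgeR adjusted p = 0.0089). That call was lost in 8 of 14 alternatives, among them those without either testis library, and the value was 4.07 after the subtraction. Prdx1 was at a mean of 962 CPM or more in every TO type described, and at 121.7 CPM in late spermatocytes of the testes; late spermatocytes had the lowest of the TO means. Leydig cells had 2389.8 and 1926 against 2549.7 and 2839 CPM, with a log2 fold change of −0.39 and no call. Txn1 was called higher in myoid cells, at 866 and 971 against 295 and 461 CPM (log2 fold change 1.26 ± 0.30 (SE), edgeR adjusted p = 0.00944), a call lost without either testis library and with a value of 0.89 after the subtraction. Prdx3, the mitochondrial peroxiredoxin, was called higher in stromal cells at 96.7 and 91.8 against 28.7 and 48.9 CPM (log2 fold change 1.40 ± 0.26 (SE), edgeR adjusted p = 0.00803). That call was lost in 8 of 15 alternatives, among them that without testis 1, and the value was 1.55 after the subtraction. Prdx4, the peroxiredoxin of the endoplasmic reticulum, was the only member of the family called lower, in Sertoli cells at 63.3 and 78.3 against 160.3 and 153 CPM (log2 fold change −1.07 ± 0.18 (SE), edgeR adjusted p = 0.00373). It lost the call in 7 of 15 alternatives, among them those without TO 1, TO 2 or testis 1 (−0.88 after the subtraction). Prdx4 was highest in elongating spermatids of the testes, at 640.2 CPM. Prdx2, Prdx5 and Prdx6 were called in no type. Prdx2 in Sertoli cells, at 1282 and 1082 against 679 and 575 CPM, passed the p threshold but not the 2-fold threshold (log2 fold change 0.99 ± 0.18 (SE), edgeR adjusted p = 0.00506), with a value of 0.57 after the subtraction. Prdx6 in Sertoli cells, where it was highest, was at 549.6 and 521 against 541 and 493 CPM, with a log2 fold change of 0.13.

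Cat and the selenoenzymes Gpx1 and Gpx3, which remove peroxides, were each called higher in TOs in at least 1 type, and the superoxide dismutases, which turn superoxide into hydrogen peroxide, were called in none. Cat was called higher in Sertoli cells, at 30.2 and 26.8 CPM in TO 1 and TO 2 against 8.11 and 10.3 CPM in testis 1 and testis 2 (log2 fold change 1.74 ± 0.26 (SE), edgeR adjusted p = 0.00213). It was called higher in macrophages, where it was most abundant, at 209 and 237 against 57.1 and 109 CPM (log2 fold change 1.65 ± 0.33 (SE), edgeR adjusted p = 0.00313). The libraries of the conditions did not overlap in either type. The Sertoli call was lost without TO 1, TO 2 or testis 1 and the macrophage call without testis 1, and the values with the background subtracted were 1.95 and 1.26. Gpx1, the common cytosolic peroxidase, was called higher in Sertoli cells at 169 and 139.5 against 90.4 and 67.9 CPM (log2 fold change 1.02 ± 0.18 (SE), edgeR adjusted p = 0.00478), and the call was lost without TO 1, TO 2 or testis 2, with a value of 0.84 after the subtraction. Sod1 was called in none of 9 types, at 62.2 and 45.7 against 110.4 and 110.0 CPM in Sertoli cells (log2 fold change −0.95, and −0.08 after the subtraction), and its last bases are shared in part with a pseudogene. Sod2, the mitochondrial dismutase, was at 170.4 and 213 against 269 and 351 CPM in Sertoli cells and 160.3 and 142 against 235 and 333 in myoid cells (log2 fold changes −0.61 and −0.93, not called, and −0.59 and −0.69 after the subtraction). Sod3, the secreted form, was highest in myoid cells in both conditions, at 209 and 173 against 179 and 204 CPM, with a log2 fold change of −0.03 (−0.57 after the subtraction).

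Gpx3, the secreted glutathione peroxidase, was called higher in 3 types. Stromal cells had 119 and 81.7 against 18.2 and 30.3 CPM (log2 fold change 2.16 ± 0.29 (SE), edgeR adjusted p = 0.00239). Macrophages had 60.0 and 50.8 against 12.5 and 9.61 CPM (log2 fold change 2.51 ± 0.39 (SE), edgeR adjusted p = 0.000487), and myoid cells had 22.6 and 16.5 against 3.22 and 2.05 CPM (log2 fold change 2.83 ± 0.45 (SE), edgeR adjusted p = 0.000961). Every TO library was above every testis library in each. The macrophage call was kept without any single library, the stromal call was lost without testis 1 and the myoid call without either testis library, and the values with the background subtracted were 1.65, 2.09 and 2.57. In stromal cells Gpx3 differed in cluster 0, with 152 and 89.0 against 17.9 and 31.6 CPM, and overlapped over the other 2 stromal clusters, with 19.0 and 20.8 against 20.2 and 17.0 CPM. In Leydig cells Gpx3 was at 29.6 and 11.0 against 2.53 and 0.295 CPM, which was not called (log2 fold change 3.76 ± 0.80 (SE), edgeR adjusted p = 0.0282).

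Gpx7 and Gpx8, peroxidases of the endoplasmic reticulum, were left out of the Sertoli test because other testis cells had far more of them, and their values are a description. Gpx8 was at 78.8 and 121 CPM in TO 1 and TO 2 against 0.386 and 1.48 CPM in testis 1 and testis 2 in Sertoli cells, that is 2019 UMIs in TOs and 3 in testes, a ratio of 122 (95% exact conditional interval 41.8 to 594, counting error only). Gpx7 was at 21.5 and 16.6 against 1.93 and 0 CPM there. Stromal cells had 134 and 150.4 against 90.3 and 96.3 CPM of Gpx8 and 84.5 and 113 against 71.4 and 62.9 of Gpx7. The stromal markers that moved with the condition in Sertoli cells are given above. In the fit with no gene left out both were called higher in Sertoli cells (edgeR adjusted p = 0.000109 and 0.00182).

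Hmox1, which breaks down haem and is a classic NRF2 and BACH1 target, was called higher in 2 types. Myoid cells had 49.8 and 39.7 CPM in TO 1 and TO 2 against 5.90 and 6.15 CPM in testis 1 and testis 2 (log2 fold change 2.87 ± 0.31 (SE), edgeR adjusted p = 0.000102). Stromal cells had 62.7 and 54.3 against 22.4 and 17.9 CPM (log2 fold change 1.64 ± 0.25 (SE), edgeR adjusted p = 0.00382). TO libraries stood above the testis libraries in both types, and both calls were lost without either testis library, with values of 4.09 and 1.89 after the background was subtracted. Macrophages, which clear haem, had the highest level, and the libraries overlapped there, at 828 and 353 against 324 and 418 CPM (log2 fold change 0.88). Leydig and Sertoli cells had values of −0.83 and −0.63, at 73.1 and 62.9 against 122 and 109.5 and 50.5 and 64.1 against 73.0 and 117 CPM, with no call. Nqo1, the quinone reductase, was at most 51.7 CPM in any library of a tested type, in Leydig cells of testis 2, and was called in none. Its log2 fold change was 1.03 in myoid cells, at 29.3 and 20.9 against 11.8 and 12.3 CPM, and 0.89 in stromal cells.

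The glutathione S-transferases of the mu class are encoded together on chromosome 3 (GRCm38), from Gstm5 at 107895821 to Gstm4 at 108044894, and several were Sertoli and Leydig genes. Gstm1 was called higher in Sertoli cells of TOs, at 1920.0 and 1746 CPM in TO 1 and TO 2 against 694 and 454 CPM in testis 1 and testis 2 (log2 fold change 1.75 ± 0.24 (SE), edgeR adjusted p = 0.00145), and the call was kept without any single library (1.53 after the subtraction). In Leydig cells the same gene was at 1327 and 1067 against 3795 and 2290.1 CPM, in the opposite direction and not called (log2 fold change −1.40 ± 0.37 (SE), edgeR adjusted p = 0.0612). Gstm2 was at 1284 and 1259 against 798 and 531 CPM in Sertoli cells (log2 fold change 1.01 ± 0.23 (SE), edgeR adjusted p = 0.0116, not called) and 1649 and 1229 against 2775 and 1769.6 in Leydig cells. Gstm6 and Gstm7 were highest in Sertoli cells in both conditions, at 1284 and 1070.0 against 875 and 662 and 531 and 387 against 436 and 286 CPM, and were not called there (log2 fold changes 0.69 and 0.41). Of the mu genes of Sertoli cells, Gstm1 was thus the only one called higher, and Gstm2, Gstm6 and Gstm7 were at 0.67, 0.22 and −0.06 after the subtraction. In Leydig cells all 4 that were tested (Gstm1, Gstm2, Gstm4 and Gstm7) had negative values, from −1.51 to −0.72, and none was called.

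Alpha-class transferases, which act on steroid intermediates and lipid peroxidation products, had 1 call. Gsta3 was higher in stromal cells of TOs, at 98.1 and 77.1 CPM in TO 1 and TO 2 against 11.9 and 29.5 CPM in testis 1 and testis 2 (log2 fold change 2.21 ± 0.36 (SE), edgeR adjusted p = 0.00505). That call was lost in 7 of 15 alternatives, among them that without testis 1, and the value was 2.30 after the subtraction. Gsta3 was the leading gene of stromal cluster 20, which held 308 and 211 cells of the TOs but 7 and 2 of the testes. That cluster had 339 and 289 CPM of Gsta3 in the TOs, and without it stromal cells had 54.8 and 60.5 against 5.74 and 29.8 CPM. In Leydig cells, where it was highest in the testes, Gsta3 was at 59.7 and 44.6 against 176 and 94.2 CPM (log2 fold change −1.43 ± 0.33 (SE), edgeR adjusted p = 0.0369, not called). Gsta2 was at 2.66 and 0.541 against 96.2 and 84.1 CPM in Sertoli cells and at 136 and 63.7 against 53.9 and 10.9 in Leydig cells. In testes it was therefore highest in Sertoli cells, and in TOs in Leydig cells. Gsta2 was left out of the Sertoli test for its level in other TO cells, and the fit with no gene left out called it lower there (edgeR adjusted p = 0.000146). Its last 500 bases share 66.2% of their 31-base stretches with other genes, most with Gm10639, and those of Gsta1 94.5%, most with Gm3776, so counts of these genes are uncertain. Gsta4, which conjugates 4-hydroxynonenal, was at 556 and 573 against 563 and 458 CPM in Sertoli cells and was called in no type.

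Gstt1, a theta-class transferase on chromosome 10, was called higher in Leydig cells at 54.5 and 59.7 CPM in TO 1 and TO 2 against 15.7 and 12.7 CPM in testis 1 and testis 2 (log2 fold change 1.94 ± 0.26 (SE), edgeR adjusted p = 0.00624). Both TO libraries were above both testis libraries. The call was lost in 7 of 15 alternatives, among them those without TO 1 or TO 2 (1.75 after the subtraction). Gstt1 was more abundant in myoid and stromal cells, at 116 and 79.5 against 48.3 and 58.1 and 95.7 and 67.1 against 46.2 and 73.0 CPM, with no call. Gstp1, the pi-class transferase, was at 93.8 and 46.1 against 232 and 65.2 CPM in Leydig cells and 112 and 46.1 against 81.5 and 34.9 in myoid cells, where the libraries of the conditions overlapped. It shares 83.4% of these stretches with Gstp2 and could not be told apart from it with certainty. Gstk1 of mitochondria and peroxisomes was a Leydig gene in both conditions, at 46.8 and 21.6 against 37.3 and 72.9 CPM. Gsto1 was at 61.0 and 61.8 against 25.8 and 33.4 CPM in Leydig cells (log2 fold change 0.98, edgeR adjusted p = 0.0583). Gstz1, Gstt2 and Gstt3 were called in no type.

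Whether the TO minus testis change differed between somatic types was tested for 4 pairs of types, in a joint fit with a term for each library. Between Leydig cells and macrophages, 10 of 25 members tested differed (3.28% of all genes tested did). These were Prdx1 (difference −3.19 ± 0.27 (SE), edgeR adjusted p = 5.20e-05), Srxn1, Cat, Txnrd1, Prdx5, Txn1, Prdx3, Gclm, Gsr and Hmox1. All 10 differences were negative, that is, the change was lower in Leydig cells, from −3.19 for Prdx1 to −1.69 for Gsr. The make-up of both types differed between conditions. Leydig cluster 18, led by Eya1, Ccdc3 and Adh1, held 255 and 301 cells of the TOs and 34 and 5 of the testes. Macrophage cluster 34, with its high Prdx1, held cells of the TOs only. The part of these clusters in the differences was not tested. Prdx5 was at 279 and 289.7 against 543 and 615 CPM in Leydig cells and 528 and 578 against 359 and 431 in macrophages. The count was 4 and 5 without testis 1 and testis 2, and 3 with the background subtracted.

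**Figure D4:**
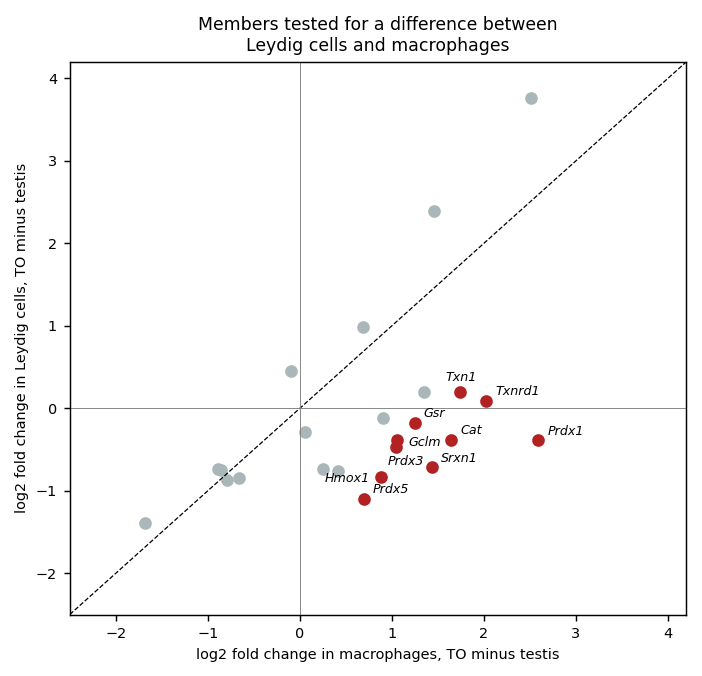
Log2 fold change, TO minus testis, of the members tested for a difference, in macrophages (x axis) and Leydig cells (y axis), without Gstt3, which had too few UMIs in macrophages alone. The dashed line marks equal changes and the 10 red named genes, which differed between the types, lie below it; Prdx1 is at 2.59 and −0.39.

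Between Sertoli and Leydig cells, 7 of 31 members differed (4.56% of all genes). They were Gstm1 (difference 2.96 ± 0.30 (SE), edgeR adjusted p = 0.000508), Gsr, Cat, Gstm7, Prdx1, Gpx1 and Gstm2, all higher in Sertoli cells by 1.55 to 2.96 on the log2 scale. The count was 4 without testis 2. Between Leydig and stromal cells 1 of 39 members differed (1.45%), namely Hmox1 (difference −2.28 ± 0.22 (SE), edgeR adjusted p = 0.0035), and this was lost without TO 1, testis 1 or testis 2. Between Sertoli cells and macrophages 3 of 27 differed (6.95%), which were Hmox1, Gsto2 and Prdx4, at −1.23, 1.53 and −1.16, with 1 left without TO 1 and 0 without either testis library. Leydig cells of TO 2 had the lower level of Leydig markers given above, and the share of Leydig cluster 18 differed between conditions. Sertoli clusters differed between conditions and between the testis libraries, as given above. The part of these in the differences was not tested.

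A last group of members is known from the male germ line and was highest in testis spermatids. Gstm5, a mu-class transferase of the sperm sheath, was at 3036 and 2094 CPM in round and 3485 and 5105 CPM in elongating spermatids of testis 1 and testis 2. Gpx4, the phospholipid hydroperoxidase, was at 1739 and 1272 in round and 2228 and 3205 CPM in elongating spermatids. Gstt4 and Gsto2 reached means of 812 and 755 CPM in elongating spermatids, and Gpx6 a mean of 145.9 CPM in round spermatids. These 5 genes were also counted in every other testis type, below their highest spermatid mean, and had lower values in nearly every TO type. Gstm5 and Gsto2 had their second highest testis means in late spermatocytes, at 2859 and 425 CPM, above those of round spermatids.

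Gstm5 was called lower in 7 types. In early spermatocytes it was at 80.8 and 54.2 CPM in TO 1 and TO 2 against 927 and 556 CPM in testis 1 and testis 2 (log2 fold change −3.50 ± 0.36 (SE), edgeR adjusted p = 2.69e-06). In macrophages it was at 41.9 and 31.5 against 1012 and 694 CPM (log2 fold change −4.34 ± 0.34 (SE), edgeR adjusted p = 4.57e-06). In differentiating spermatogonia it was at 145 and 114 against 741 and 470.0 CPM (log2 fold change −2.26 ± 0.26 (SE), edgeR adjusted p = 0.000432). Sertoli cells had 67.4 and 55.7 against 812 and 938 CPM, myoid cells 186 and 134 against 1338 and 841, stromal cells 189 and 169 against 1561 and 984 and undifferentiated spermatogonia 174 and 137 against 683 and 508 (log2 fold changes −3.75, −2.80, −2.74 and −2.03, all called), and TO and testis libraries did not overlap in any of the 7. The myoid call was lost without either testis library and those in spermatogonia without testis 1. Late spermatocytes had 768 and 1077 against 3396 and 2321 CPM (log2 fold change −2.18 ± 0.68 (SE), edgeR adjusted p = 0.0419, not called). In TOs, Gstm5 was higher in late spermatocytes than in any other type, the next being the cells named endothelial, with a mean of 207 CPM.

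Gpx4 was called lower in early spermatocytes, at 97.8 and 70.0 CPM in TO 1 and TO 2 against 505 and 338 CPM in testis 1 and testis 2 (log2 fold change −2.37 ± 0.31 (SE), edgeR adjusted p = 3.02e-05), and in 3 other types. Myoid cells had 288 and 253 against 763 and 617 CPM, undifferentiated spermatogonia 169 and 233 against 425 and 361 and differentiating spermatogonia 300.3 and 257 against 630.4 and 516 (log2 fold changes −1.38, −1.06 and −1.07, all called). Macrophages had 354 and 305 against 772 and 551 CPM, with no call. These 4 calls were each lost without at least 1 library (early spermatocytes without TO 1, myoid cells without either testis library, undifferentiated spermatogonia without TO 1 or testis 1, differentiating spermatogonia without TO 1, TO 2 or testis 1). In late spermatocytes it was at 434 and 501 against 1661 and 1273 CPM (log2 fold change −2.21 ± 0.59 (SE), edgeR adjusted p = 0.023, not called), and in Sertoli cells at 497 and 535 against 748 and 781 CPM (log2 fold change −0.49). Of the 31-base stretches at the end of Gpx4, 93.4% occur in Gpx4-ps2, so its counts are uncertain.

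Gsto2, an omega-class transferase, was called lower in 7 types, from −4.70 in macrophages to −1.11 in undifferentiated spermatogonia. Its values in early spermatocytes were 20.6 and 12.8 CPM in TO 1 and TO 2 against 145 and 145 CPM in testis 1 and testis 2 (log2 fold change −3.16 ± 0.32 (SE), edgeR adjusted p = 2.75e-06). Sertoli cells had 15.9 and 10.9 against 117 and 165 CPM, macrophages 5.55 and 3.13 against 143 and 103, myoid cells 8.99 and 4.84 against 168 and 159 and stromal cells 11.6 and 5.87 against 179 and 158. Undifferentiated spermatogonia had 54.5 and 38.5 against 105 and 83.6 CPM and differentiating spermatogonia 31.9 and 27.7 against 109.8 and 116, the smallest log2 differences among the 7. Calls of Gsto2 were lost in myoid cells without testis 2 and in undifferentiated spermatogonia without TO 1, TO 2 or testis 1. The call in undifferentiated spermatogonia was lost in 7 of 15 alternatives. Gstt4 was called lower in macrophages and in myoid, stromal and late spermatocyte cells. In late spermatocytes it was at 19.3 and 32.3 CPM in TO 1 and TO 2 against 285 and 226 CPM in testis 1 and testis 2 (log2 fold change −3.84 ± 0.54 (SE), edgeR adjusted p = 0.0023), and in stromal cells at 0.942 and 0.833 against 188 and 132 CPM (log2 fold change −7.39 ± 0.35 (SE), edgeR adjusted p = 0.000231). Macrophages had 0.504 and 0.895 against 111 and 104 CPM and myoid cells 0.785 and 1.07 against 161 and 122, and the 4 calls were kept whichever library was left out. Gpx6 was called lower in 5 types, but TOs held 1 to 4 UMIs of it in each. Its CPM was 0.140 and 0.270 against 27.8 and 21.4 in Sertoli cells, 0 and 0.224 against 30.6 and 12.8 in macrophages, 0 and 0.164 against 46.1 and 19.1 in myoid cells, 0 and 0.0833 against 46.9 and 16.3 in stromal cells and 3.21 and 0 against 71.6 and 38.7 in late spermatocytes. In stromal cells 2 UMIs in TOs against 88 in testes gave a ratio of 612 (95% exact conditional interval 165 to 5140), and in Leydig cells 0 UMIs against 79 gave at least 126-fold lower levels in TOs, with 3 UMIs over the group as floor. The Sertoli call of Gpx6 was kept without any single library, and the others were lost without 1 or more of them (macrophages and stromal cells without TO 2, myoid cells without TO 2 or either testis library, late spermatocytes without TO 1 or testis 1).

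The ratios of these genes to each other in testis cells are given as a description. Gpx6 per Gstt4 UMI lay between 0.209 and 0.372 over the types of testis 1 and between 0.074 and 0.199 over those of testis 2, spermatids included. Gsto2 per Gstt4 UMI lay between 0.952 and 1.383 in the somatic cells, spermatogonia and early spermatocytes of testis 1 and between 0.985 and 2.383 in those of testis 2, at 1.473 and 1.896 in late spermatocytes of testis 1 and testis 2, at 0.559 and 0.604 in their round spermatids and at 1.241 and 0.782 in their elongating spermatids. With the background subtracted, a step chosen after seeing the data, Gstm5 had log2 fold changes from −2.61 in macrophages to −0.62 in differentiating spermatogonia, Gsto2 from −3.49 in myoid cells to −0.30 in undifferentiated spermatogonia, and Gpx4 from −2.15 in late spermatocytes to 0.13 in Sertoli cells. In the 4 types where Gpx4 had been called it was at −0.53 in early spermatocytes, −0.26 in myoid cells and −0.20 and −0.44 in undifferentiated and differentiating spermatogonia. Gstt4 was at −5.55 in stromal cells and −3.22 in late spermatocytes and Gpx6 at −5.17 in late spermatocytes, and in the other types both had too few UMIs left to test. None of these 5 genes was then called.

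**Figure D5:**
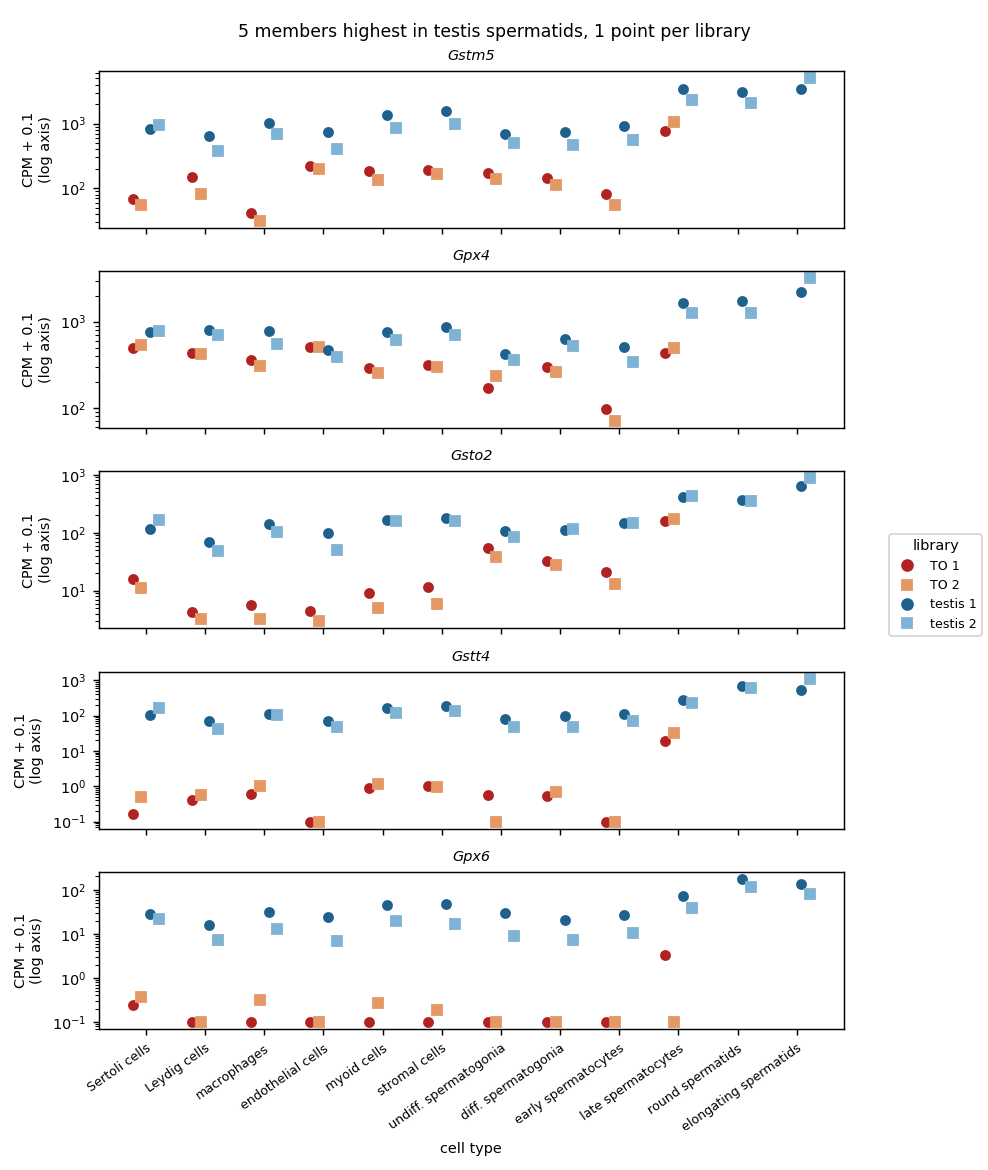
CPM + 0.1 on log axes (y) of Gstm5, Gpx4, Gsto2, Gstt4 and Gpx6 in 12 cell types (x), with 1 point per library and no TO points for spermatids. Testis points lie above TO points in nearly every type, and for Gstm5 at 2094 to 5105 CPM in spermatids. For Gstm5 and Gsto2, late spermatocytes of the testes lie above round spermatids.

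Genes around the members were counted from lists chosen with the rule. Of 7 genes of NADPH supply, 3 of 6 tested were higher in Sertoli cells (Me1, Idh1 and Taldo1) and 3 of 6 in macrophages (Pgd, Tkt and Taldo1, with Idh2 lower). In myoid cells 3 of 7 were higher (Tkt, Idh1 and Pgd), in early spermatocytes 1 of 2 (Taldo1), and 0 in the other types. Of all genes tested, 7.48% were higher in Sertoli cells, 2.68% in macrophages, 4.01% in myoid cells and 0.872% in early spermatocytes. The same shares stand beside the counts of the other lists. Pgd, a pentose phosphate enzyme that makes NADPH, was at 283 and 193 against 72.4 and 86.5 CPM in macrophages (log2 fold change 1.79 ± 0.30, edgeR adjusted p = 0.00101). Of 8 NRF2 regulators, 2 of 8 were higher in Sertoli cells, Bach1, a repressor of Hmox1 (log2 fold change 2.21 ± 0.41, edgeR adjusted p = 0.00568), and Maff (log2 fold change 2.13 ± 0.45, edgeR adjusted p = 0.00926), and 0 were called elsewhere. Nfe2l2, which encodes NRF2, and Keap1 were called in no type.

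The cystine and glutathione supply list had 13 genes, with 0 to 1 called per type. Slc7a11, the cystine importer that feeds glutathione synthesis, was lower in Leydig cells of TOs at 11.6 and 12.3 against 79.4 and 54.6 CPM (log2 fold change −2.55 ± 0.27, edgeR adjusted p = 0.0036), the type in which Gclc had its highest TO level. Ggct was higher in Sertoli cells (log2 fold change 1.19 ± 0.15, edgeR adjusted p = 0.000988) and Ggt5 in myoid cells (log2 fold change 1.68 ± 0.31, edgeR adjusted p = 0.00244). Of 12 thioredoxin and glutaredoxin partners, Txnrd3, the reductase of the testis, was lower in 6 types, from −3.69 in macrophages to −1.39 in undifferentiated spermatogonia. In testis 1 and testis 2 it was at 121 and 125 CPM in macrophages and 223 and 220 CPM in early spermatocytes. The part of spermatid RNA in these Txnrd3 differences was not tested. Txnip was higher in Sertoli cells (log2 fold change 2.23 ± 0.30, edgeR adjusted p = 0.00145), Glrx in macrophages (log2 fold change 2.00 ± 0.41, edgeR adjusted p = 0.00368) and Msrb3 in stromal cells (log2 fold change 1.54 ± 0.27, edgeR adjusted p = 0.00653). Glrx3 was lower in myoid cells (log2 fold change −1.05 ± 0.24, edgeR adjusted p = 0.00835).

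Mgst1, a microsomal glutathione transferase outside the rule, was higher in Sertoli cells at 1736 and 1888 against 283 and 320.3 CPM (log2 fold change 2.67 ± 0.20, edgeR adjusted p = 0.000103), and in macrophages (1.54) and myoid cells (2.93), and Mgst3 was lower in Sertoli cells (−1.30) and myoid cells (−2.80), out of 6 genes. Of 6 iron and haem genes, 3 of 4 tested were higher in Sertoli cells (Ftl1, Fth1 and Tfrc), 2 of 5 in myoid cells (Ftl1 and Blvrb), and in macrophages Tfrc and Fth1 were higher (2.18 and 1.98) while Slc40a1, the iron exporter, was lower at 14.1 and 20.8 against 337 and 354 CPM (log2 fold change −4.06 ± 0.31, edgeR adjusted p = 4.30e-06). Tfrc was also higher in differentiating spermatogonia and in early and late spermatocytes. Of 6 genes that make selenoproteins, Sephs2 was lower in Sertoli, myoid and stromal cells and early spermatocytes (−1.57, −2.12, −2.13 and −1.51) and Secisbp2 was higher in Sertoli cells (log2 fold change 1.05 ± 0.20, edgeR adjusted p = 0.00626). All these tests share the 2 TO and 2 testis libraries with those of the members. For the genes of these lists, values with a library left out or with the background subtracted are not given.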

How the data were processed

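RNA of single cells was captured with 10x 3′ chemistry in 2 TO and 2 testis libraries. The authors deposited raw UMI counts per gene and barcode, made with Cell Ranger 7.1.0 against mm10 per the submitters' processing notes. Counts were used as deposited, and no column of other values was present. Gene positions are from GENCODE vM21 and promoters from RefSeq.

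Barcodes marked by Scrublet (0.8% per 1000 barcodes) were removed. Cells also had to show between 1000 and 5000 genes, no more than 20000 UMIs and a mitochondrial share of UMIs up to 10%. Cells were scaled to 10000 UMIs and logged, and 2000 variable genes, members excluded, gave 30 components (20 for germ cells). These were aligned with Harmony and clustered with Leiden (scanpy 1.11.5, resolution 1, 20 neighbours). Clusters were named where at least 3 fixed markers were detected. 3 germ clusters whose leading genes were somatic markers stayed unnamed, a condition widened after the clusters were seen. Raw counts were summed per library and type. Types with at least 20 cells in each library were tested with edgeR 4.0.16 (quasi-likelihood test, TMM, filterByExpr, Benjamini-Hochberg adjustment over all genes kept). Standard errors are the fold change over the root of F. DESeq2 1.42.0 was an alternative. The tests were tried on simulated counts with known changes. Exact conditional intervals on pooled UMIs cover counting error only, with a floor of 3 counts over a group.

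Members, lists and tests were chosen with earlier results of these data known. Values are given by library for members called in a type, for the 3 most abundant members of a type and for 12 fixed members in at least 1 type. The other members are given by counts or ranges, and Prdx2, Gstm6, Gstm7, Gpx7, Gpx8, Gsta2 and Gsta4, among others, were described after their values were seen. Levels by cluster in stromal cells and macrophages were added after the values were seen. The alternatives were DESeq2, other filters, a replicate block, libraries left out, thinned sums, other cell filters, clustering without Harmony and another marker score. The labels' replicate numbers were not said to pair libraries.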

Additional observations from a re-analysis of the deposited data

Results flagged for a closer look

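The change from testis to TO differed between somatic cell types for 21 pairs of member and types, each by an interaction term in edgeR with an adjusted p under 0.01 and a difference over 1 on the log2 scale. Values are the log2 difference of the first type minus the second.

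Leydig cells against macrophages gave the most, 10 of 25 members tested (3.28% of all genes tested). Prdx1 differed by −3.19, Srxn1 by −2.46, Cat by −2.29, Txnrd1 by −2.18 and Prdx5 by −2.03. Hmox1 differed by −1.84, Txn1 and Prdx3 by −1.70 each, and Gclm and Gsr by −1.69 each. In all 10 the change in Leydig cells was the lower. The Srxn1 difference was no longer past the thresholds in 5 of 10 alternative settings.

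Sertoli cells against Leydig cells gave 7 of 31 members tested (4.56% of all genes tested). Gstm1 differed by 2.96, Gsr by 1.94, Cat by 1.84, Gstm7 by 1.81, Prdx1 by 1.67, Gpx1 by 1.61 and Gstm2 by 1.55, with the change in Sertoli cells the higher.

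Sertoli cells against macrophages gave 3 of 27 members tested (6.95% of all genes tested), namely Gsto2 at 1.53, Hmox1 at −1.23 and Prdx4 at −1.16. These were no longer past the thresholds in 8, 5 and 6 of 10 alternative settings. In testes Gsto2 was highest in elongating spermatids, and the part of spermatid RNA in its difference was not tested. Leydig against stromal cells gave 1 of 39 members tested (1.45% of all genes tested), Hmox1 at −2.28. The Leydig markers of TO 2 were at a median of 150.1 CPM against 2351 in TO 1. Sertoli cells, Leydig cells and macrophages also differed in their clusters between conditions. The part of these in the differences was not tested.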

How the results depend on the processing

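No called value changed direction. Of the values of single members under the alternatives, 1153 stayed on the same side of the thresholds, 265 were no longer past them and 49 came to pass them; the cause was not tested unless said. In the order Sertoli, Leydig, macrophages, myoid, stromal, undifferentiated and differentiating spermatogonia, early and late spermatocytes, members called were 10, 2, 10, 9, 9, 3, 3, 4 and 3. Subtracting the testis background, chosen after seeing the data, left 0 in all 9 types. It took unequal parts from the 2 testis libraries, as given above. Subtraction in the TO libraries as well was not run, since the spermatid list summed to only 4.77 and 9.54 CPM there. Leaving genes out from 2 times the level in other cells gave 4, 0, 5, 1, 3, 0, 0, 1 and 1. Fewer genes were then tested, in Leydig cells 8773 against 12063 in the main result. Gclc was still tested in Leydig cells and lost its call. The part of the smaller number of genes in these counts was not tested. With no gene left out, counts moved to 16 in Sertoli and 6 in Leydig cells, 6 and 8 in the spermatogonia and 9 and 5 in the spermatocytes.

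DESeq2 gave 8 in Leydig cells and 6 in late spermatocytes. Genes with any UMI gave 5 in myoid cells, 16 in stromal cells, 5 in differentiating spermatogonia and 6 in late spermatocytes. Thinned sums gave 0 in Leydig cells and 1 in undifferentiated spermatogonia. Keeping doublets gave 16 in myoid cells, 2 in early and 1 in late spermatocytes, but myoid cells then numbered 65 and 82 in the TOs and 235 and 162 in the testes, against 2334 and 1722 and 691 and 430 in the main result. Without Harmony no TO cells were named myoid, so that setting gave no myoid value. Without upper limits per cell, Leydig cells had 0, early spermatocytes 2 and late spermatocytes 0. The other marker score gave 6 in differentiating spermatogonia and 0 in late spermatocytes.

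With 1 library left out, counts ranged from 5 to 13 in Sertoli cells, 1 to 4 in Leydig cells, 7 to 11 in macrophages, 1 to 12 in myoid cells, 4 to 10 in stromal cells, 0 to 5 and 2 to 5 in undifferentiated and differentiating spermatogonia, 2 to 5 in early and 1 to 8 in late spermatocytes. A lone library of a condition was then assumed to vary like the other pair. Differences between types ranged from 4 to 8 for Sertoli and Leydig cells, 0 to 2 for Sertoli cells and macrophages, 4 to 13 for Leydig cells and macrophages and 0 to 2 for Leydig and stromal cells.

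The replicate block gave 0 in Leydig cells, 15 in myoid cells and 5 in differentiating spermatogonia and moved no other count by over 1.5 times. Same-numbered libraries had deviations that correlated at −0.047 to 0.17 over genes, and with 2 libraries per condition the numbers are not shown to pair them.

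Of the differences between types, Sertoli and Leydig cells (7 in the main result) had 11 with genes with any UMI, 12 with no gene left out and 4 from 2 times. Sertoli cells and macrophages (3) had 0 with DESeq2, 6 with any UMI, 7 with no gene left out and 1 from 2 times. Leydig cells and macrophages (10) had 18 with no gene left out and 3 with the background subtracted. Leydig and stromal cells (1) had 13 with DESeq2, 16 with any UMI and 0 with the background subtracted.

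The share of UMIs on the members, TO minus testis in percentage points, moved from 0.267 to 0.319 without Harmony in Sertoli cells, from −0.0095 to 0.189 with doublets kept in myoid cells (the smaller set of cells above) and from −0.207 to −0.0014 with the other marker score in late spermatocytes. With the background subtracted it was 0.121, 0.0904 and 0.0790 in undifferentiated and differentiating spermatogonia and early spermatocytes.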
